A study of Mus musculus with 2 samples.

Results

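Collagens are the structural proteins of the extracellular matrix, and the ileum, the last stretch of the small intestine, holds them in the layers beneath its epithelium and around its muscle and vessels. The genes described here are all rows of the deposited tables whose symbol has the form of a collagen chain gene (Col, a type number, a, a chain number), grouped by collagen type. There were 43 of these among 22756 gene rows: 11 chains of the fibrillar types, 6 of the basement membrane type, 6 of type VI and 20 of other types. The measurements were counts of ribosome-protected mRNA fragments (footprints), the pieces of mRNA that a translating ribosome shields from nuclease. Ileum came from wild-type C57BL/6 mice at postnatal day 21. One group was fed and the other had been fasted for 48 h, with 1 library each (n = 1 per group). Both libraries are whole ileal tissue, the labels do not say how many animals each represents, and no matched mRNA library was analysed here. A footprint count therefore joins mRNA abundance with ribosome occupancy, and fewer cells of a type cannot be told apart from less RNA per cell.

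A collagen molecule is built from a trio of chains wound around each other, each chain carrying a repeat of glycine followed by any pair of residues, often proline and hydroxyproline. Fibrillar collagens (types I, II, III, V, XI, XXIV and XXVII) pack into the fibres that give connective tissue its tensile strength and are made mainly by fibroblasts and smooth muscle cells. Type IV forms the sheet-like network of basement membranes under epithelium and around vessels and muscle, and type VI forms beaded filaments next to basement membranes. The other types decorate fibrils, anchor membranes or span the cell surface. New chains are hydroxylated and folded in the endoplasmic reticulum, trimmed outside the cell, cross-linked, and later broken down by metalloproteinases and cathepsins.

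Fibrillar chains differ from type IV and type VI chains in how the repeat is laid out over the whole chain, which single exons cannot show. To show the repeat itself, coding exons of 8 chains are given, each lying wholly inside it. They are written 5′ to 3′ on the coding strand, with the glycine codon of every repeat unit in capitals. Coordinates are GRCm38 (mm10), 1-based.
Col1a1, chr11:94939697-94939741, plus strand, coding exon 7 of 51: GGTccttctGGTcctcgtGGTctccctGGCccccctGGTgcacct
Col1a2, chr6:4515210-4515254, plus strand, coding exon 7 of 52: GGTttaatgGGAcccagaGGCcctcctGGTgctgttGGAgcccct
Col3a1, chr1:45325360-45325413, plus strand, coding exon 6 of 51: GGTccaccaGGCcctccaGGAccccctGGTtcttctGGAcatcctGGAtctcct
Col5a2, chr1:45434892-45434945, minus strand, coding exon 6 of 54: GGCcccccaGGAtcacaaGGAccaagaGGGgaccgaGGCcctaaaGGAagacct
Col4a1, chr8:11247006-11247095, minus strand, coding exon 3 of 52: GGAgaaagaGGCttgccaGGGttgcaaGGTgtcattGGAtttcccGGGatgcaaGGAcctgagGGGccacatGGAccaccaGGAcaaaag
Col4a2, chr8:11399704-11399748, plus strand, coding exon 5 of 47: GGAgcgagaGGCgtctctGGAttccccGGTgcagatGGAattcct
Col6a1, chr10:76719623-76719676, minus strand, coding exon 9 of 35: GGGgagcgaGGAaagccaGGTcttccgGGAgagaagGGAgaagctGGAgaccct
Col6a3, chr1:90795915-90795968, minus strand, coding exon 12 of 40: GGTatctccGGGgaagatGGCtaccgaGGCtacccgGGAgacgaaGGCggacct

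The exon shown is the first of 45 to 90 bases per chain that starts with a whole glycine codon and holds complete repeat units. These traits were thus conditions of the choice and not results. The 54-base exon of Col3a1 holds 6 units and the 90-base exon of Col4a1 holds 10. In the 11 fibrillar genes between 48.8% and 64% of the coding exons that lie wholly in the repeat were exactly 54 bases long, against 5.26% to 11.8% in the 6 basement membrane genes and 12.5% to 20% in the 6 type VI genes. The longest uninterrupted run of the repeat had a median of 338 units in the fibrillar chains. It had a median of 43.5 units in the type IV chains, whose helix is broken up (23 to 27 runs of at least 3 units per chain), and of 45 in the type VI chains, whose range (37 to 87) overlapped that of type IV (39 to 66). The 20 other chains were mixed, with longest runs of 23 to 113 units and a share of 54-base exons from 0% to 66.7% (Col12a1), so the exon pattern does not set the fibrillar class apart from them. By length, the repeat covered 73.3% of the residues of Col1a1, 78.9% of Col4a1 and 12.3% of Col6a3, whose chain is mostly globular domains. Despite the repeat, at least 94.3% of the 28-base windows of each coding sequence occurred in no other annotated gene, the lowest being Col6a6 and the next Col6a5 at 95.1%.

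Gene rows summed to 5558620 footprints for fed ileum and to 5434252 for fasted ileum. Collagens took 0.881% of them in the fed library (48964 footprints; 95% exact binomial interval 0.873% to 0.889%) and 0.256% in the fasted library (13919; 0.252% to 0.260%). Intervals and floors here cover counting error only, and they treat each read as an independent count. Amplified reads without molecular identifiers are not independent molecules, so the intervals can be too narrow even for counting error. No p-values were computed with 1 library per group. Markers of ileal enterocytes were abundant in both libraries, which fits the tissue label: Fabp6, the ileal bile acid binding protein, had 28873 fed and 16615 fasted counts, and Cubn, the vitamin B12 receptor, had 23860 and 40302.

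Per-gene levels are given as CPM, the count relative to library size in the usual unit, after scaling with TMM, a method that sets the typical gene's ratio between libraries near 1. A gene was counted as measured when its 2 counts summed to at least 30, and as higher or lower in the fasted library when the ratio was at least 1.5-fold and its 95% exact interval excluded no difference. By this rule 26 of the 43 collagen genes were measured, and in fasted ileum 16 of these were lower, 0 higher and 10 neither. The median log2 ratio over the 26 was -0.92, beside 0.0028 over all 11333 measured genes, of which 17.3% were lower and 17.3% higher. At a 2-fold threshold 12 collagens were lower and 0 higher, beside 9.13% and 8.25% of all measured genes. With plain CPM, which scales by total gene counts and shifts every log2 ratio by -0.32, 18 collagens were lower and 0 higher, against 31.2% and 8.86% of all genes. Without the need for 30 counts, 0 collagens were higher as well, beside 13.7% of all genes with any count. The counts in the 2 libraries are drawn gene by gene in the plot of footprint density.

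**Figure D1:**
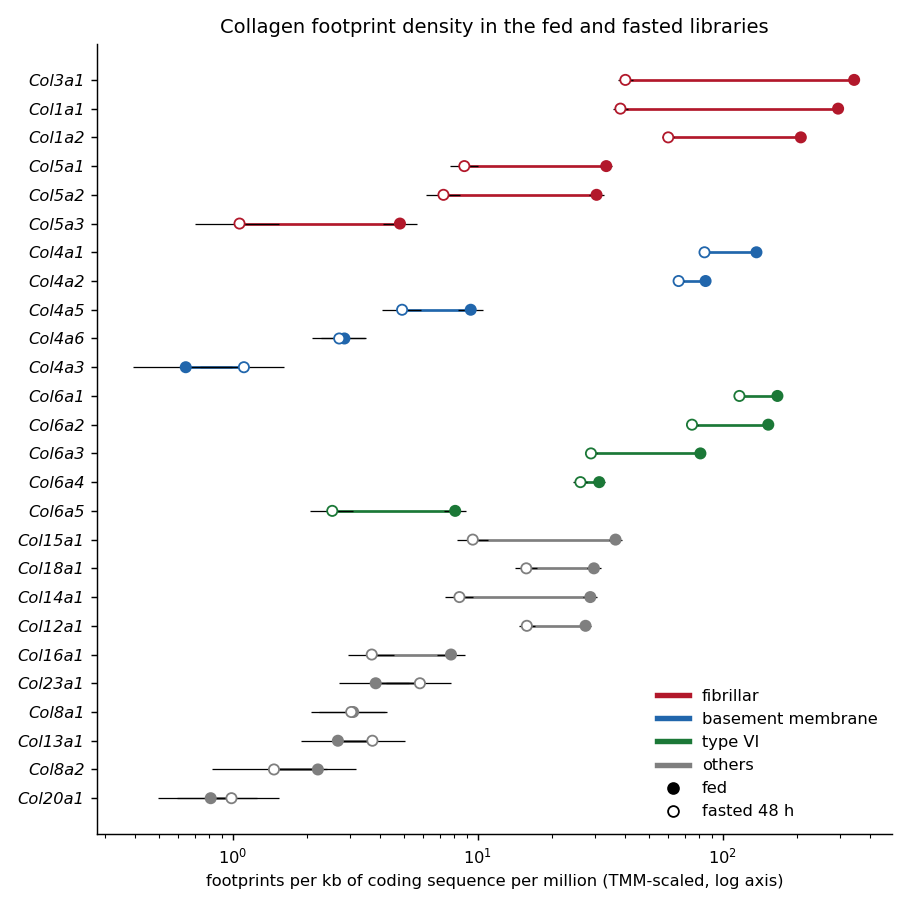
Footprints per kilobase of coding sequence in scaled CPM (log axis) for the 26 measured collagen genes, with filled points for the fed and open points for the fasted library, 95% exact Poisson intervals as thin black bars, and colours for class. The 3 red genes at the top are the most densely covered in the fed library (208 to 344) and lie between 38.2 and 59.9 in the fasted library, below Col6a1 at 116.9.

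The fibrillar class had the lowest median log2 ratio of any class. All 6 measured fibrillar genes were lower in the fasted library, each by more than 3-fold, and their median log2 ratio was -2.11. Outside this class, Col15a1 (3.83-fold), Col14a1 (3.42-fold) and Col6a5 (3.17-fold) were also lower by more than 3-fold. Summed over the 11 genes, fibrillar footprints went from 24885 to 3286 counts, a TMM-scaled level 5.92-fold lower in the fasted library (log2 ratio -2.57, interval -2.62 to -2.51). The chains Col1a1, Col1a2 and Col3a1, carried 91.3% of these footprints in the fed library and 87.0% in the fasted library.

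Col3a1 encodes the chain of type III collagen, the homotrimer of the fine reticular fibres in gut and vessel walls. It had 9379 counts in the fed library (1509 scaled CPM) and 854 in the fasted library (176), which made it 8.58-fold lower (log2 ratio -3.10, interval -3.20 to -3.00). Col1a1, which supplies a pair of the chains of each type I molecule, the main fibre-forming collagen, had 8006 fed counts (1288 scaled CPM) and 809 fasted counts (166). It was 7.74-fold lower (log2 ratio -2.95, -3.06 to -2.85). Col1a2, which supplies the remaining chain of type I, had 5325 counts (857 scaled CPM) and 1197 (246), 3.48-fold lower (-1.80, -1.89 to -1.71). The interval of Col1a2 did not reach that of Col1a1, although both chains enter the same molecule.

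Type V collagen is a minor component that is built into type I fibrils and limits their diameter. Its 3 chains were lower by similar amounts, and their intervals overlapped. Col5a1 had 1146 fed and 236 fasted counts (log2 ratio -1.92, -2.13 to -1.72). Col5a2 had 852 and 158 (-2.08, -2.33 to -1.83). Col5a3, the least covered of the trio, had 156 and 27 (-2.18, -2.82 to -1.58). Col5a2 lies 24614 bases from Col3a1 on chromosome 1, on the opposite strand. The other fibrillar genes are best known from cartilage and bone and were hardly covered: Col11a1 had 7 fed and 3 fasted counts, Col24a1 had 8 and 1, Col27a1 had 5 and 1, Col11a2 had 1 and 0, and Col2a1 had no read in either library.

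**Figure D2:**
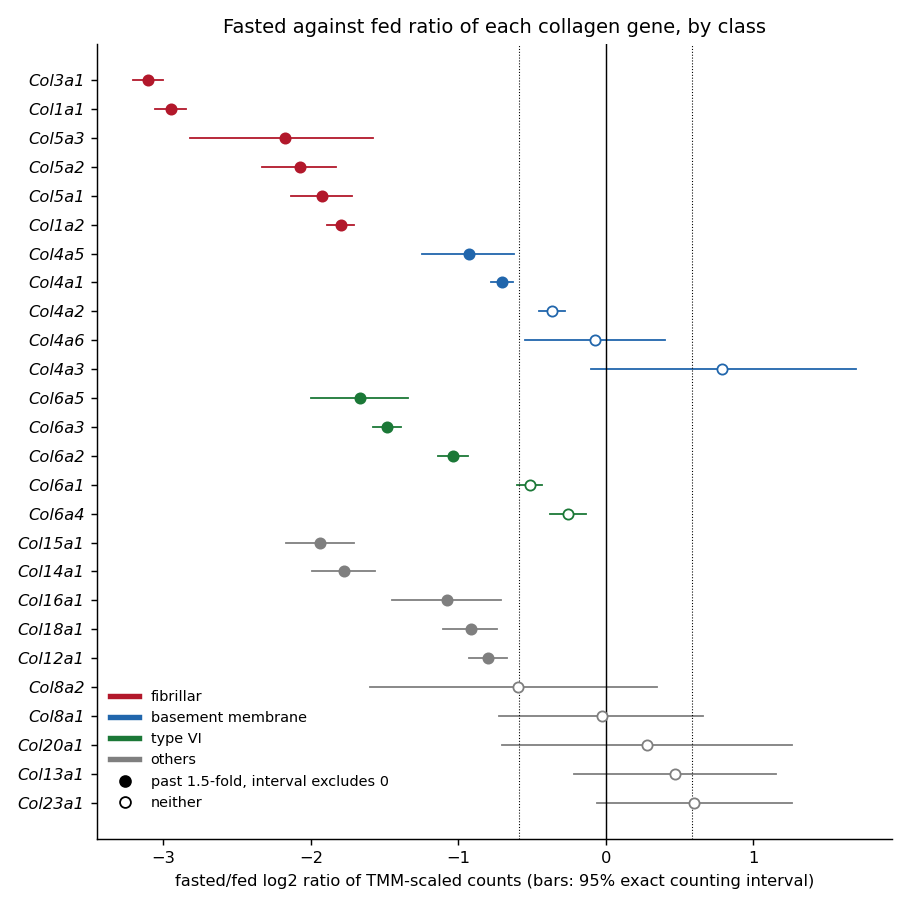
Fasted/fed log2 ratio of TMM-scaled counts for each measured collagen gene, with its 95% exact counting interval, grouped and coloured by class. Filled points are past 1.5-fold (dotted lines) with an interval excluding 0, and open points are neither. The 6 fibrillar genes lie between -3.10 and -1.80, left of the 5 basement membrane genes, which lie between -0.93 and 0.79.

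The basement membrane class differed least between the libraries. Of its 5 measured genes, 2 were lower, 0 higher and 3 neither, with a median log2 ratio of -0.37. Summed counts went from 7391 to 3913, 1.48-fold lower after scaling (log2 ratio -0.56, -0.62 to -0.51). Col4a1 and Col4a2, the chains of the network found in nearly all basement membranes, made up 94.4% (fed) and 94.3% (fasted) of type IV footprints. Col4a1 had 4269 fed and 2048 fasted counts and was 1.63-fold lower (-0.70, -0.78 to -0.63). Col4a2 had 2707 and 1642 (-0.37, -0.46 to -0.28), short of 1.5-fold with TMM but past it with plain CPM (-0.69). These 2 genes are transcribed away from each other on chromosome 8, and their annotated 5′ ends overlap by 22 bases.

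Among the rarer type IV chains, Col4a5, part of the networks of kidney and smooth muscle basement membranes, was lower (295 and 121 counts; -0.93, -1.25 to -0.62). Its head-to-head neighbour on the X chromosome, Col4a6, had 90 and 67 counts (-0.070, -0.55 to 0.40). The interval of Col4a6 spanned no difference and did not reach that of Col4a5. Col4a3 and Col4a4, best known from the kidney glomerulus, were near the limit of counting, Col4a3 with 20 and 27 counts (0.79, -0.10 to 1.70) and Col4a4 with 10 and 8.

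Type VI chains went different ways in size. Of 5 measured genes, 3 were lower and 2 neither, and the summed counts went from 11947 to 4986, 1.87-fold lower after scaling (log2 ratio -0.91, -0.95 to -0.86). Col6a1 (3193 and 1746 counts) had a log2 ratio of -0.52 (-0.60 to -0.43), which was past 1.5-fold only with plain CPM (-0.84). Col6a2, 85161 bases away on the same strand of chromosome 10, had 2956 and 1128 counts (-1.03, -1.13 to -0.93). Col6a3, the longest chain of the classic trio, had 4044 and 1130 (-1.48, -1.58 to -1.39). The 3 intervals did not overlap, although these chains join in equal parts in the type VI monomer. Of the chains that can stand in for Col6a3, Col6a4 had 1348 and 883 counts (-0.25, -0.38 to -0.13), and Col6a5 was lower with 398 and 98 (-1.67, -2.0005 to -1.34). Col6a5 lies between Col6a4 and Col6a6 (8 and 1 counts) on chromosome 9. An antisense transcript covers 2.34% of the Col6a4 coding sequence, and the strand setting of the counting is not given.

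The remaining 20 genes had 10 measured members, 5 lower, 0 higher and 5 neither (median log2 ratio -0.68). The multiplexins Col15a1 and Col18a1, proteoglycan collagens of basement membranes whose C-terminal fragments are restin and endostatin, were both lower. Col15a1 had 930 fed and 190 fasted counts (-1.94, -2.17 to -1.71), and Col18a1 had 848 and 351 (-0.92, -1.101 to -0.74). Of the fibril-associated collagens, which sit on fibril surfaces, Col14a1 was lower with 963 and 220 counts (-1.77, -1.99 to -1.56). Col12a1, the gene with most counts in this group, had 1573 and 708 (-0.80, -0.93 to -0.67), and Col16a1 had 229 and 85 (-1.07, -1.45 to -0.71).

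The 5 other measured genes of this group had small counts and intervals that spanned no difference. They were the membrane-spanning Col13a1 (37 and 40 counts; log2 ratio 0.47) and Col23a1 (38 and 45; 0.60), the short-chain network formers Col8a1 (43 and 33; -0.026) and Col8a2 (29 and 15; -0.60), and Col20a1 (20 and 19; 0.28). The 17 genes that were not measured had at most 18 counts in sum, 12 of them had fewer than 10, and Col2a1 and Col26a1 had none. Together they held 70 fed and 42 fasted counts. The limit set by 3 counts lay at 0.540 CPM for the fed library and at 0.552 CPM for the fasted one, before TMM scaling. Among the unmeasured genes were the cartilage collagens Col9a1 (1 fed and 1 fasted count), Col9a2 (3 and 8) and Col9a3 (2 and 0). Others were Col7a1 of skin anchoring fibrils (3 and 2 counts) and the hemidesmosomal Col17a1 (1 and 0). Col22a1 had 12 and 4 counts, Col28a1 7 and 9, Col25a1 2 and 3, and Col19a1 0 and 1.

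The make-up of the collagen footprints, which needs no scaling between libraries, shifted away from the fibrillar class. Fibrillar chains took 50.8% of collagen footprints in the fed library (95% exact binomial interval 50.4% to 51.3%) and 23.6% in the fasted library (22.9% to 24.3%). Basement membrane chains took 15.1% (14.8% to 15.4%) and 28.1% (27.4% to 28.9%). Type VI chains took 24.4% (24.02% to 24.8%) and 35.8% (35.0% to 36.6%), and the other types 9.68% (9.42% to 9.95%) and 12.5% (11.9% to 13.02%). The ratio of fibrillar to basement membrane footprints was 4.01-fold lower in the fasted library (interval 3.80 to 4.23), and the ratio of fibrillar to type VI footprints 3.16-fold lower (3.01 to 3.32). As shares of all gene footprints, the 4 classes were each smaller in the fasted library, as the plot of class shares sets out.

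**Figure D3:**
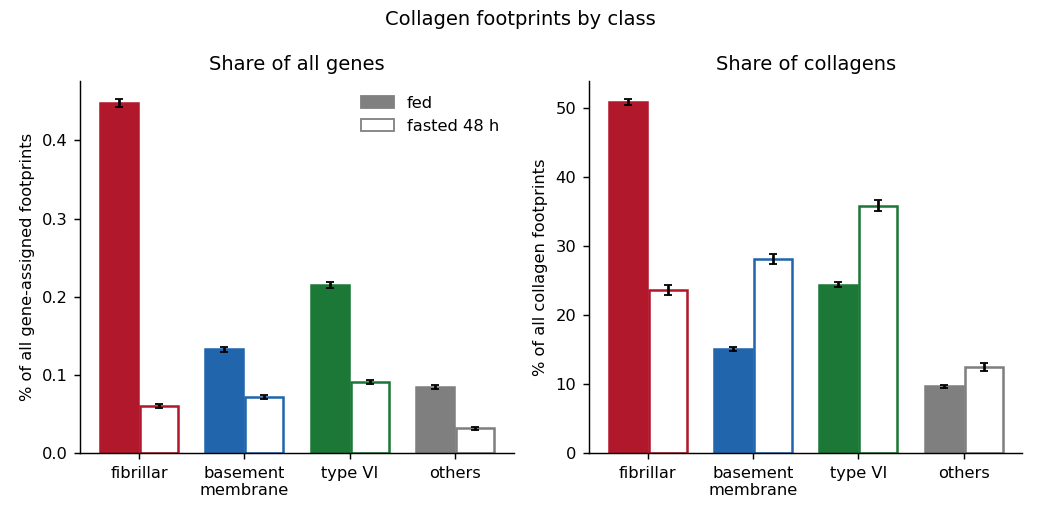
Summed footprints of each collagen class as a percentage of all gene-assigned footprints (left) and of all collagen footprints (right), filled bars for the fed and open bars for the fasted library, with 95% exact binomial intervals. On the left all 4 classes are smaller in the fasted library, fibrillar chains most (0.448% against 0.0605%). On the right the fibrillar share shrinks from 50.8% to 23.6% while the basement membrane and type VI shares grow.

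The order of the chains by footprint density changed accordingly. Density is the scaled CPM divided by the coding length in kilobases, so that chains of different length can be set side by side. In the fed library the order ran Col3a1 (344 per kb), Col1a1 (295), Col1a2 (208), Col6a1 (167), Col6a2 (153), Col4a1 (137), Col4a2 (85.0) and Col6a3 (81.0). Within these 8, only Col4a2 and Col6a3 had overlapping counting intervals as neighbours. In the fasted library Col6a1 came first (116.9 per kb), then Col4a1 (84.2), Col6a2 (74.8), Col4a2 (66.0), Col1a2 (59.9), Col3a1 (40.0), Col1a1 (38.2) and Col6a3 (29.0). There the intervals of Col4a2 and Col1a2, and of Col3a1 and Col1a1, overlapped. The interval of Col6a3 also overlapped that of Col6a4 in the next place (26.2). With the longest annotated coding sequence Col6a3 came to 66.0 per kb in fed and 23.6 in fasted ileum, below Col6a4 in the latter.

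Because partner chains enter 1 molecule, their densities were also compared within each library, which removes the scaling. Col3a1 and Col1a1, which are chains of different molecules, were compared in the same way. Type I collagen contains a pair of Col1a1 chains for each Col1a2 chain. The Col1a1/Col1a2 ratio per kilobase was 1.42 in fed ileum (interval 1.37 to 1.47) and 0.638 in the fasted library (0.583 to 0.698), 2.22-fold lower (2.02 to 2.45). So Col1a1 was the denser chain in the fed library and Col1a2 in the fasted library. Type IV has the same pair-to-single make-up of Col4a1 and Col4a2, and their ratio was 1.61 (1.54 to 1.69) and 1.28 (1.19 to 1.36), 1.26-fold lower (1.17 to 1.37).

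For type VI, the Col6a1/Col6a2 ratio was 1.09 (1.04 to 1.15) for fed and 1.56 (1.45 to 1.68) for fasted ileum, a 1.43-fold higher ratio (1.31 to 1.57). The Col6a3/Col6a1 ratio was 0.485 (0.463 to 0.508) and 0.248 (0.230 to 0.267), 1.96-fold lower (1.79 to 2.14). With the longest annotated Col6a3 coding sequence (9852 rather than 8031 bases) the 2 values became 0.395 and 0.202, and the fold between libraries does not depend on length. Ratios that differed little were Col5a1/Col5a2, at 1.096 (1.002 to 1.1985) and 1.22 (0.990 to 1.498), with a change of 1.11-fold (0.886 to 1.39), and Col3a1/Col1a1, at 1.16 (1.13 to 1.20) and 1.05 (0.951 to 1.15), 1.11-fold lower (1.002 to 1.23). Col4a5/Col4a6 did differ, at 3.28 (2.58 to 4.20) and 1.81 (1.33 to 2.47), 1.81-fold lower (1.22 to 2.70). Col8a1/Col8a2 was 1.39 (0.850 to 2.31) and 2.07 (1.09 to 4.10), a change of 1.48-fold whose interval spanned no difference (0.644 to 3.48). Ratios other than 1 within a library can also come from how evenly footprints of each chain were captured, which was not tested.

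**Figure D4:**
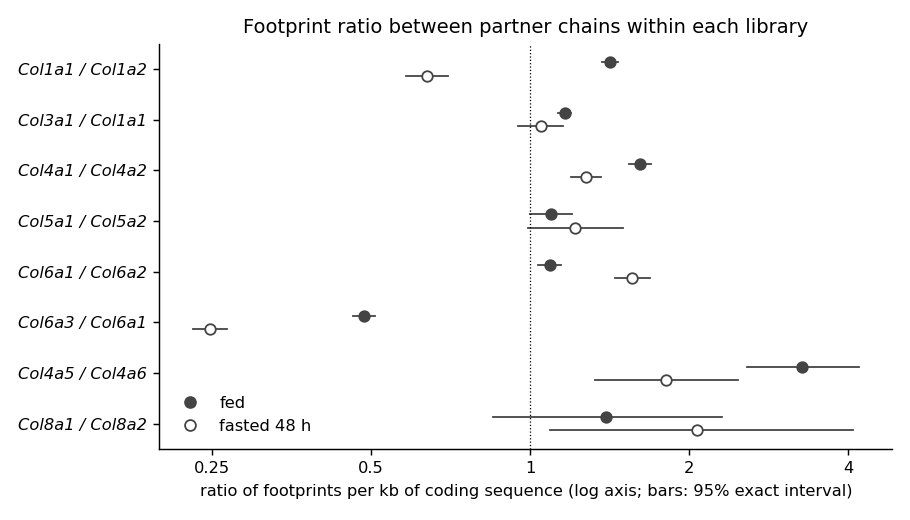
Ratio of footprints per kilobase of coding sequence between partner chains within a library (log axis), filled points for the fed and open points for the fasted library, bars for 95% exact intervals, and a dotted line at 1. Col3a1/Col1a1 compares chains of different molecules. Col1a1/Col1a2 crosses from 1.42 to 0.638, Col6a3/Col6a1 goes from 0.485 to 0.248, and the intervals of Col5a1/Col5a2 overlap.

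Across the 26 measured genes the log2 ratio was compared with features of the sequence, as a description over genes of the same 2 libraries. Spearman's rho was -0.41 with the longest uninterrupted repeat, but -0.18 over the 23 genes left without Col1a1, Col1a2 and Col3a1. With coding length it was -0.27 over the 26 genes and -0.42 over the 23, with GC content 0.12 and 0.22, with the share of residues in the repeat 0.042 and 0.26, and with the share of proline in the repeat -0.10 and -0.084. The order of these values by size thus changed without these 3 genes.

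Among 22 measured genes that fold and modify procollagen in the endoplasmic reticulum, 6 were lower, 1 was higher and 15 were neither (median log2 ratio -0.48). The counts of this and the following lists stand beside 17.3% lower and 17.3% higher over all measured genes. With plain CPM 13 of the 22 were lower and 0 higher, beside 31.2% and 8.86%. Serpinh1, the collagen-specific chaperone HSP47, was lowest, with 1536 fed and 193 fasted counts (log2 ratio -2.64, -2.86 to -2.42). P4ha1, a catalytic subunit of prolyl 4-hydroxylase, had 209 and 30 (-2.45, -3.05 to -1.89). Its partner subunit P4hb, which is also the general protein disulfide isomerase, was the higher one, with 8903 and 10739 counts (0.63, 0.59 to 0.67; 0.30 with plain CPM). The other lower members were Crtap, Plod2, Plod3 and Fkbp9, at -1.28, -1.39, -0.69 and -1.09.

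Genes of procollagen cleavage and fibril assembly had 6 of 14 lower, 2 higher and 6 neither (median -0.19). Pcolce, which speeds removal of the C-propeptide, had 368 and 75 counts (-1.94, -2.32 to -1.58), and Bgn, the small proteoglycan biglycan, had 1288 and 346 (-1.54, -1.72 to -1.37). Mep1a and Mep1b encode the meprins, brush border proteases that can also cleave procollagen. They held most counts of the list, Mep1b with 15153 and 15196 (0.36, 0.33 to 0.39) and Mep1a, which was higher, with 11365 and 17037 (0.94, 0.91 to 0.97). The other higher member was Dcn, decorin, a relative of Bgn, with 2696 and 3748 counts (0.83, 0.76 to 0.90; 0.51 with plain CPM, short of 1.5-fold).

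Of the 4 measured cross-linking oxidases, 1 was higher, 0 lower and 3 neither. Lox, which starts cross-links between collagen and elastin molecules, had 67 fed and 219 fasted counts (2.06, 1.66 to 2.48). Genes of collagen breakdown and its inhibitors had 6 of 14 higher, 3 lower and 5 neither (median -0.029, which turned to 0.66 over members with at least 200 counts). Pepd, the prolidase that splits proline-containing dipeptides, had 4430 and 7404 counts (1.096, 1.04 to 1.15). Ctsl, cathepsin L, had 642 and 1185 (1.24, 1.1 to 1.38), and Timp3, a matrix-bound metalloproteinase inhibitor, had 369 and 754 (1.39, 1.20 to 1.57). Mmp9, a gelatinase, was the lowest, with 339 and 103 (-1.36, -1.70 to -1.04). Both proteases and inhibitors were thus among the higher genes.

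Collagen receptors had 1 of 8 measured members higher, 0 lower and 7 neither (median -0.33), and 1 of 8 is near the 17.3% over all genes. With plain CPM 5 were lower, beside 31.2% of all genes. Itgb1, the beta subunit shared by the collagen-binding integrins, had 3441 and 2555 counts (-0.074, -0.15 to 0.00022). Adgrg1, an adhesion receptor for type III collagen, was higher with 274 and 424 (0.99, 0.76 to 1.21). Of 20 other basement membrane proteins 10 were lower, 2 higher and 8 neither (median -0.51). Sparc, a collagen-binding matrix protein, had 3876 and 1195 counts (-1.34, -1.44 to -1.25), Lama1, a laminin chain, had 126 and 19 (-2.37, -3.15 to -1.67), and Lamb3, a chain of the epithelial laminin, was higher with 601 and 1041 (1.15, 1.002 to 1.30).

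Elastic fibre and other matrix proteins had 9 of 22 lower, 2 higher and 11 neither (median -0.56). Vcan, the large proteoglycan versican, had 303 and 64 counts (-1.89, -2.30 to -1.49), and Postn, periostin, had 1186 and 305 (-1.60, -1.79 to -1.42). Tnc, tenascin C, had most counts of the list (2799 and 1314; -0.74, -0.83 to -0.64). Thbs1, thrombospondin 1, was higher with 948 and 1651 (1.16, 1.04 to 1.27). Over the 104 measured genes of the 7 lists, 34 were lower (32.7%) and 15 higher (14.4%), beside 17.3% and 17.3% of all measured genes. With plain CPM 57 were lower and 11 higher, beside 31.2% and 8.86%. The share of higher genes was thus near that over all genes.

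**Figure D5:**
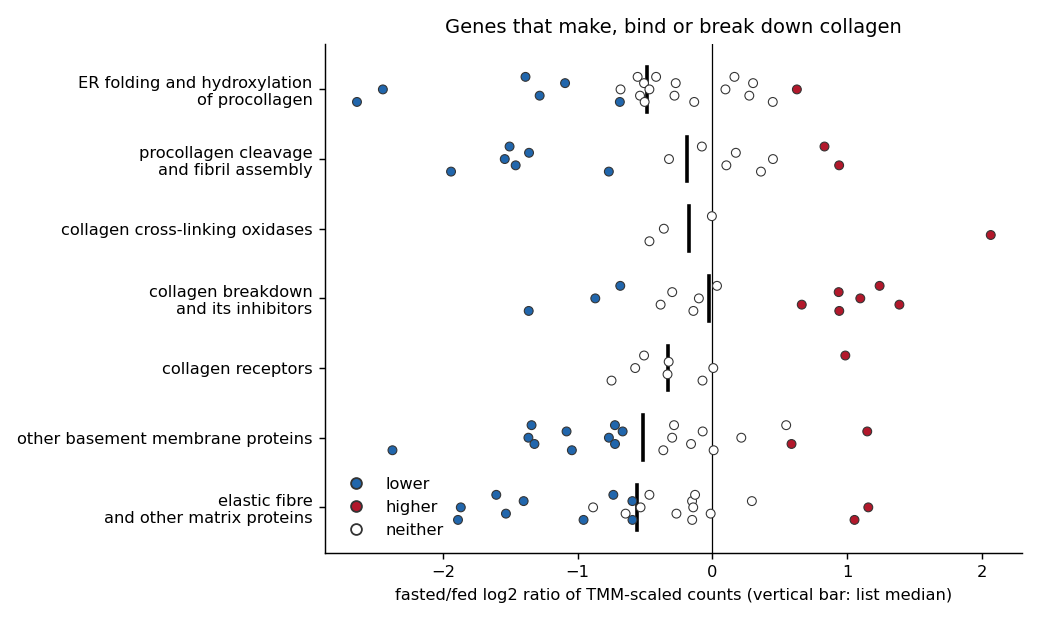
Fasted/fed log2 ratio of TMM-scaled counts for measured genes that fold, trim, cross-link, break down or bind collagen or form the matrix around it, 1 point per gene, with vertical bars for list medians and blue or red for lower or higher genes. The leftmost points of the top row are Serpinh1 (-2.64) and P4ha1 (-2.45), and the rightmost point of the plot is Lox (2.06).

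Among markers of collagen-making cells, those of fibroblasts went both ways, while the smooth muscle markers that were called were all lower. Of 10 measured fibroblast markers 5 were lower, 2 higher and 3 neither (median -0.61), and with plain CPM 6 were lower and 0 higher, beside the same shares over all genes as above. Their summed level was 1873 scaled CPM (fed) and 2062 (fasted), carried mainly by Gsn (4184 and 3217 counts), which muscle and epithelium also express, and Dcn. Lum, a fibroblast proteoglycan, had 630 and 179 counts (-1.46, -1.71 to -1.22) and Clec3b 263 and 87 (-1.24, -1.61 to -0.89), while Pdgfra, singled out after its value was seen, had 1013 and 1304 (0.72). Dcn, Lum, Fbln1 and Mfap5 also stand in the matrix lists, so these lists are not separate. Of 10 smooth muscle markers 6 were lower, 0 higher and 4 neither, and their sum went from 4918 to 2663 scaled CPM. Myh11, smooth muscle myosin, had 10683 and 5463 counts (-0.61, -0.66 to -0.56), Actg2, enteric actin, 4810 and 1045 (-1.85, -1.94 to -1.75) and Tagln 1873 and 502 (-1.54, -1.69 to -1.40).

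Most vessel markers were neither. Of 10 endothelial markers 4 were higher, 0 lower and 6 neither, beside 17.3% of all measured genes that were higher, with sums of 328 and 490 scaled CPM. With plain CPM 1 was higher, beside 8.86% of all genes. They included Pecam1 (225 and 412 counts; 1.23), Tie1 (101 and 148; 0.91) and Vwf (403 and 476; 0.60, and 0.27 with plain CPM). Pericyte markers had 1 of 6 higher, Kcnj8 (68 and 124; 1.22), and 5 neither, among them Rgs5, with most counts (954 and 1088; 0.55). With plain CPM 2 of the 6 pericyte markers were lower, beside 31.2% of all genes. Both this count and the 1 of 6 higher were near the shares over all genes. Mesothelial markers had 0 of 5 called (sums 57.9 and 61.1 scaled CPM; Msln 99 and 90 counts, 0.22). Of the glial markers Erbb3, which epithelium also expresses, was higher (2558 and 4045 counts; 1.02), while Sox10 had 16 and 7 counts, S100b 2 and 5 and Gfap 5 and 0. Adipocyte markers went both ways, Cidec higher (249 and 636; 1.71) and Plin1 and Adipoq lower (75 and 7, 138 and 58; -3.07 and -0.90). Of 9 ileal enterocyte markers 6 were higher and 0 lower (4 higher and 1 lower with plain CPM), with sums of 17286 and 24166 scaled CPM, among them Fgf15 (810 and 1739 counts; 1.46).

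Set against these sums, which again needs no scaling, the ratio of fibrillar collagen to smooth muscle marker footprints was 3.20-fold lower in the fasted library (interval 3.07 to 3.34). That of fibrillar collagen to fibroblast marker footprints was 6.51-fold lower (6.23 to 6.82). The fibroblast sum rests mainly on Gsn and Dcn and was slightly higher in the fasted library (log2 ratio 0.14), while the median fibroblast marker was lower (-0.61). The ratio of type VI to smooth muscle marker footprints had an interval that spanned no difference (fed/fasted 1.01, 0.975 to 1.05). Basement membrane collagen went the other way against smooth muscle markers, with a ratio 1.25-fold higher in fasted ileum (1.197 to 1.31), and against endothelial markers it was 2.21-fold lower (2.05 to 2.37). The part that the numbers of these cells have in the collagen differences was not tested.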

How the data were processed

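Ribosome footprints of ileum were counted in 1 fed and 1 fasted library. Values are read counts for each gene symbol, deposited by the authors without normalization. Per the submitters' processing notes, cutadapt, Bowtie 1.1.2, STAR, HTSeq and the mm10 build were used, without their roles or order being stated. Annotation and strand setting: not given in the sources used here. NA (7647 fed and 7827 fasted rows) was read as 0. Rows of unassigned reads were left out of library sizes. They held 13.4% and 21.0% of reads overlapping no feature, 41.4% and 39.9% of reads aligned to several places and 0.209% and 0.196% of ambiguous reads.

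Libraries were scaled with TMM (edgeR 4.0.16, R 4.3.3) over all genes, for scaling only. Ratios carry Clopper-Pearson intervals (95%) on the split of counts. Ratios of ratios carry exact conditional odds ratio intervals. List medians used 0.5 counts added to each count. Coordinates, coding lengths and repeats came from GENCODE vM21 (GRCm38), which held all 43 collagen symbols and 21943 of the 22756 gene rows. The length model was the best-ranked APPRIS transcript. The counting functions were tested on simulated data. Alternatives were plain CPM, DESeq2 1.42.0 size factors, upper-quartile and trimmed TMM scaling, other count minimums, 2-fold, wider intervals, and other lengths. Named were all 43 collagens and, per list, the gene with most counts, the first 2 members called in its more frequent direction and the first in the other, ranked by the interval bound nearest to no difference. Other genes named were chosen after their values were seen. Members, lists and rules were chosen with earlier results of these data known. One glial marker is not reported here.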

Additional observations from a re-analysis of the deposited data

How the results depend on the processing

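No paired analysis was possible because each group has 1 library. With plain CPM, the DESeq2 size factors, upper-quartile factors, TMM without collagens and the 20 genes with most counts, no minimum count, a minimum of 200 counts, 2-fold and a stricter interval, between 12 and 18 collagens were lower and 0 higher, and their median or mean log2 ratio stayed between -1.28 and -0.91. Over all genes under the same settings, the share lower ran from 9.13% (2-fold) to 31.2% (plain CPM). The share higher ran from 8.25% (2-fold) to 19.3% (minimum of 200 counts). Of the 26 measured collagens, 24 kept their call with plain CPM (Col4a2 and Col6a1 became lower), 22 with 2-fold (Col12a1, Col18a1, Col4a1 and Col4a5 were no longer lower) and all 26 under the other scalings and intervals. Over the pathway lists, 57 genes were lower with plain CPM and 22 with 2-fold, in place of 34, and 7 were higher with 2-fold, in place of 15. These stand beside 31.2% of all measured genes lower with plain CPM, and 9.13% lower and 8.25% higher with 2-fold.

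The log2 change in each class's share of collagen footprints was -1.11 for fibrillar, 0.90 for basement membrane, 0.55 for type VI and 0.36 for other chains. As shares of all gene footprints these became -2.89, -0.88, -1.23 and -1.42, the last 3 reversed, collagens as a whole having taken a smaller share. Without the member with most counts they became 1.17 for basement membrane, 0.78 for type VI and 0.22 for other chains. The Col6a3/Col6a1 ratio was 0.395 and 0.202 with the longest coding sequence. List medians reversed with a minimum of 200 counts for cleavage and assembly (0.013), cross-linking (2.06, a single gene) and breakdown (0.66), and for breakdown with no minimum (0.089). The cause was not tested. With 1 library per group, differences between animals cannot be told apart from the feeding state, and genes of few counts had intervals wider than 1.5-fold.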
